A study of Mus musculus with 8 samples.

Results

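The comparison described here set PML-RARa-transduced haematopoietic cells that had lost Ring1b against non-transduced cells that had lost Ring1b, and asked which PML-RARa differences stay without Ring1b. It used 2 of the 8 libraries of an RNA sequencing study, joined by transcript, and all 19353 RefSeq transcripts of the joined tables were scored. A transcript was compared where its value was 20 or more in the higher of the 2 libraries, which 10802 of the 19353 transcripts met. The same scoring of the 2 Ring1b wild-type libraries, in which 10932 transcripts met the minimum, served as the point of reference for what stays.

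All cells were lineage-depleted (Lin-) bone marrow progenitors of C57BL/6 mice, called Lin- HSC in the labels, and every group carried Ring1a-/- and Cdkn2a-/- alleles. The groups used here were PML-RARa, Ring1b KO; non-transduced (NT), Ring1b KO; PML-RARa, Ring1b WT; and NT, Ring1b WT. Cells received OHT (4-hydroxytamoxifen, commonly used to activate an inducible Cre recombinase) or ethanol for 72 h, and the titles mark the Ring1b KO libraries as OHT. The KO libraries are called OHT and the WT libraries control below. The labels do not name the Cre line. By these labels the OHT cells lacked both Ring1a and Ring1b, and the control cells lacked Ring1a alone. OHT treatment and Ring1b loss coincide in these libraries, so their effects cannot be told apart. NT cells were not transduced, so PML-RARa and transduction itself cannot be told apart either. The labels give no number of mice, clones or cultures, and the NT columns are headed "Empty" in the tables.

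Ring1b (gene Rnf2) and its paralogue Ring1a (gene Ring1) are the ubiquitin ligases of Polycomb repressive complex 1 (PRC1), which places ubiquitin on histone H2A and keeps developmental regulators silent in differentiated and stem cells. PML-RARa is the fusion of the PML protein with retinoic acid receptor alpha that drives acute promyelocytic leukaemia. It represses retinoid target genes and holds granulocyte differentiation at the promyelocyte stage. Cdkn2a, which encodes p16 and p19Arf, is a PRC1 target, and its deletion can relieve growth arrest that PRC1 loss brings.

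Each group was 1 library, so no difference within a pair has a replicate check or a test. A fit that takes the 2 pairs as repeats, chosen after seeing the data, called 0 of 10500 transcripts for PML-RARa (edgeR's quasi-likelihood test with Benjamini-Hochberg adjustment, smallest adjusted p 0.395, 1 residual degree of freedom, 1154 at an unadjusted p under 0.05). Values are reads divided by a size factor that the 8 libraries share, called scaled reads below. Ratios are differences of log2(value + 1), PML-RARa minus NT, with the exact 95% interval that counting error alone gives to the ratio without the added 1 (intervals in log2 units). The 4 libraries held 4886703 (PML-RARa OHT), 5699203 (NT OHT), 5992257 (PML-RARa control) and 6998223 (NT control) reads. At this depth 3 reads in the OHT libraries are 3.57 and 3.12 scaled reads for PML-RARa and NT. The lowest entry in every library was 1 read, and it was not known whether that entry stood for 0 or 1 read. In bulk RNA, fewer cells of a type and less RNA per cell cannot be told apart.

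The labels could be checked only in part. Rnf2 had 771 scaled reads in PML-RARa OHT cells, against 802 in NT OHT cells, and 990 in PML-RARa control cells, against 666 in NT control cells. A count over the whole transcript does not check a deletion of part of the gene, so these values do not bear on the loss of Ring1b. Ring1 had 23.8 scaled reads in PML-RARa OHT cells and 43.6 in NT OHT cells, with 180 and 109 in the PML-RARa and NT controls. Reads of Ring1 were thus present in all 4 libraries labelled Ring1a-/-, and both Cdkn2a transcripts had between 22 and 69 reads in each library labelled Cdkn2a-/-. Whether these reads come from parts of the genes left by the deletions was not tested. The main mouse Rara transcript had 53.6 against 30.1 scaled reads in the OHT pair and 44.0 against 24.8 in the control pair, and the fusion transcript itself was not analysed here. Mast cell and basophil markers were high in all 4 libraries, with a summed value over 8 genes of 14551 in PML-RARa OHT and 13232 in NT OHT cells, and 10293 and 9619 in the PML-RARa and NT controls, although the cells are labelled as progenitors. Of the progenitor markers, Gata2 supplied most of the sum, while Kit stood at 34.5 and 27.0 scaled reads and Flt3 at 9.52 and 13.5 in the PML-RARa and NT OHT cells. The 4 T and NK cell markers with a value summed to 17.9 and 20.8 in the same libraries.

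The PML-RARa and NT transcriptomes were closer in the OHT pair than in the control pair. In the OHT pair 457 transcripts were at least 2-fold higher in PML-RARa cells (4.23% of those compared) and 630 were at least 2-fold lower (5.83%). In the control pair the counts were 1352 higher (12.4%) and 905 lower (8.28%). The share of 2-fold differences that were higher in PML-RARa cells was 42.0% in the OHT pair and 59.9% in the control pair. That split depends on centring: the median ratio over all compared transcripts was -0.13 in the OHT pair and -0.06 in the control pair, and with ratios centred on these medians the higher share became 53.3% in the OHT pair. Among abundant genes the contrast was wider still. Of 1978 genes at 1000 or more scaled reads in an OHT library, 23 were 2-fold higher and 10 were 2-fold lower in PML-RARa OHT cells, whereas of 2121 such genes in the controls 102 were higher and 55 were lower.

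A minority of the control-pair increases stayed, and a somewhat larger share of the decreases. Of the 1352 transcripts that were 2-fold higher in PML-RARa controls, 258 (19.1%) were also 2-fold higher in the OHT pair, beside 4.23% of all transcripts compared there. A further 473 kept the direction at under 2-fold, 317 were equal or reversed at under 2-fold, 42 were 2-fold lower, and 262 were under the minimum in both OHT libraries. Of the 905 transcripts that were 2-fold lower in PML-RARa controls, 255 (28.2%) were 2-fold lower in the OHT pair, beside 5.83% of all. Another 442 kept the direction at under 2-fold, 72 were equal or reversed at under 2-fold, 10 were 2-fold higher and 126 were under the minimum. The 19.1% and 28.2% count transcripts under the minimum with OHT in their base, which the 4.23% and 5.83% leave out. Read the other way, the transcripts that stayed made up 56.5% of the 457 that were higher and 40.5% of the 630 that were lower in the OHT pair. The pairs share no library. Differences picked for their size in 1 pair of single libraries tend to be smaller in another pair. The shares that stayed are thus a description. Over the 10247 transcripts compared in both, the sign was the same for 67.5% and Pearson's r was 0.55, given as a description because the points share 4 libraries and their depth.

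**Figure D1:**
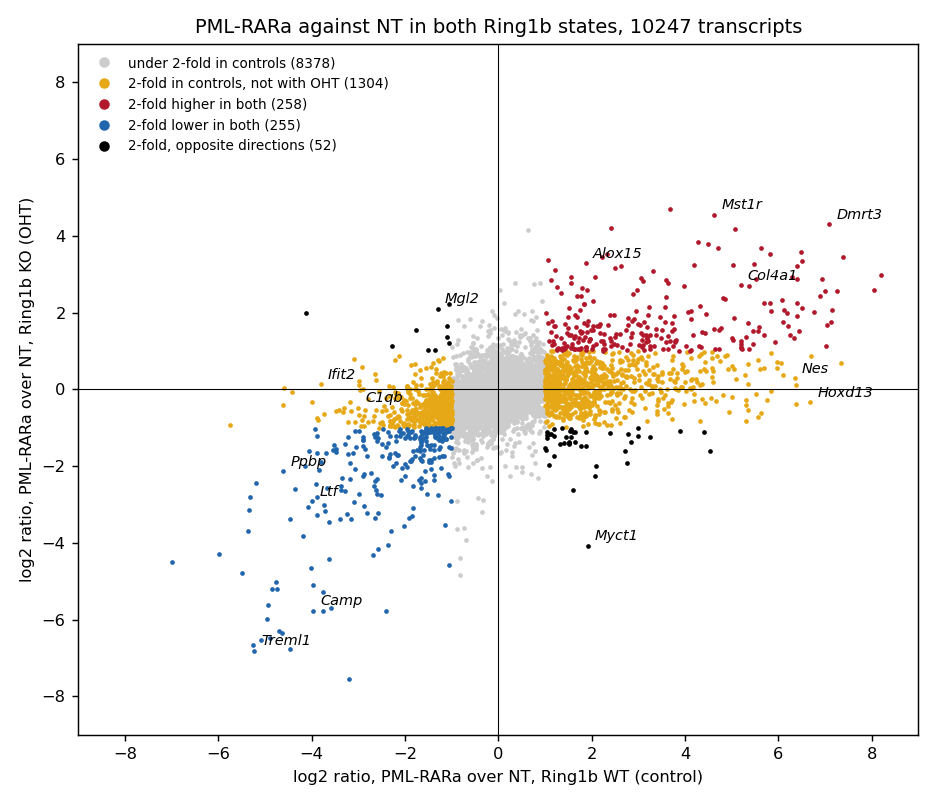
Each point is 1 of 10247 transcripts, with its log2 ratio of PML-RARa over NT in Ring1b WT controls on the x axis and in Ring1b KO (OHT) cells on the y axis. The 258 transcripts higher in both (red) and the 255 lower in both (blue) lie in opposite corners, and the 1304 transcripts that were 2-fold apart only in controls (yellow) spread along the x axis, out to Hoxd13 and Nes on the right.

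The control differences were lost through shifts of either library. A shift here is a 2-fold difference between the OHT and the control library of one cell type. Of the 832 transcripts that were higher in PML-RARa controls, reached the minimum in the OHT pair and were no longer 2-fold higher there, 336 (40.4%) were higher in NT OHT than in NT control cells with PML-RARa within 2-fold. In 175 (21.0%) the PML-RARa library was lower with OHT with NT within 2-fold, in 126 both of these shifts were seen, and in 152 neither was. In 12 both libraries were lower with OHT and in 31 both were higher. Of the 524 transcripts that were lower in PML-RARa controls and no longer 2-fold lower with OHT, 147 (28.1%) were higher in PML-RARa OHT than in PML-RARa control cells with NT within 2-fold, and in 107 (20.4%) NT was higher with OHT as well. In 58 (11.1%) NT was lower with OHT with PML-RARa within 2-fold, in 63 PML-RARa was lower as well, in 10 the libraries shifted towards each other and in 139 neither of these shifts was seen. Where a single library shifted, it was thus more often the lower library of the control pair, which was higher with OHT.

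Mst1r and Gpr153 were among the genes that stayed higher most. Mst1r, the Ron receptor tyrosine kinase, had 120 scaled reads in PML-RARa OHT cells against 4.16 in NT OHT cells, and 187 against 6.62 in the control pair. Its ratio was 4.55 (3.45 to 6.76) with OHT and 4.62 (3.81 to 6.05) in controls, nearly the same size in both. Gpr153, an orphan G protein-coupled receptor, had 142 against 9.35 scaled reads in the OHT pair and 243 against 9.93 in the control pair. In both genes the NT libraries lay close together and the PML-RARa libraries far above them.

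Rspo1, a secreted Wnt pathway agonist, had 58.3 scaled reads in PML-RARa OHT and 3.12 in NT OHT cells (3 reads), a ratio of 3.85 (2.59 to 6.55), with 260 and 12.4 in the PML-RARa and NT controls. Fgf23, a hormone of phosphate balance, had 35.7 and 1.04 in the OHT pair (30 reads against 1) and 88.0 and 1.65 in the control pair. Rgma, a co-receptor of bone morphogenetic proteins, had 22.6 and 1.04 (19 reads against 1) with OHT and 102 and 0.827 in controls. These 3 genes were low with OHT, so their ratios rest on few reads in the NT libraries. Drc1, a subunit of the dynein regulatory complex of cilia, and Tnxb, an extracellular matrix tenascin, behaved alike, with ratios of 3.70 (2.43 to 6.40) and 3.67 (1.95 to 9.96) in the OHT pair.

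The DM-domain transcription factor genes Dmrt1, known for testis development, and Dmrt3, known for spinal interneurons, stayed higher at a reduced level. Dmrt1 had 35.7 scaled reads in PML-RARa OHT cells and 2.08 in NT OHT cells (30 reads against 2), and 386 against 3.31 in the control pair. Dmrt3 had 39.3 against 1.04 with OHT (33 reads against 1) and 247 against 0.827 in controls. The NT libraries held 1 to 4 reads of either gene, so the smaller ratio with OHT came from the PML-RARa side: 3.58 (2.12 to 7.21) with OHT and 6.49 (5.50 to 8.75) in controls for Dmrt1.

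At 1000 or more scaled reads the genes that stayed higher could be read with little counting error. Col4a1 and Col4a2, which encode the paired chains of basement membrane collagen IV, had 1882 and 2420 scaled reads in PML-RARa OHT cells, against 286 and 456 in NT OHT cells. In the control pair they had 1695 and 2164 against 45.5 and 178. The PML-RARa libraries differed little, while NT cells held more of both with OHT, so the Col4a1 ratio was 2.71 (2.53 to 2.91) with OHT and 5.19 (4.83 to 5.63) in controls. Nt5e, the CD73 ectonucleotidase that makes adenosine, had 2342 against 421 with OHT and 3072 against 414 in controls. Alox15, the lipoxygenase of eosinophils and alternatively activated macrophages, had 1404 against 142 with OHT and 453 against 122 in controls, a larger ratio with OHT (3.29, 3.05 to 3.57) than in controls (1.88, 1.62 to 2.16). Col5a1, a fibrillar collagen chain that was under 1000 scaled reads with OHT, had 632 against 85.2 with OHT and 1562 against 33.1 in controls. Thy1, a surface glycoprotein of thymocytes and some progenitors, had 1957 against 691 with OHT and 1905 against 547 in controls, and Cpne7, a copine, 1238 against 415 with OHT and 1629 against 156 in controls. Arnt2, a bHLH-PAS partner factor, had 1421 against 414 with OHT and 374 against 97.6 in controls.

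Some genes that were 2-fold higher in the OHT pair were under 2-fold apart in controls. Lipg, endothelial lipase, had 2498 scaled reads in PML-RARa OHT and 366 in NT OHT cells (ratio 2.77, 2.61 to 2.94), yet 4066 and 3188 in the PML-RARa and NT controls (0.35, 0.29 to 0.41). The NT library with OHT was the one apart. Syne1, the nuclear envelope protein nesprin 1, had 1146 against 363 with OHT and 762 against 1008 in controls. Gapt, an adaptor that binds Grb2, had 1026 against 371 with OHT and 1012 against 677 in controls. Rgs13, a regulator of G protein signalling found in mast cells, had 72.6 against 3.12 scaled reads with OHT (61 reads against 3, ratio 4.16, 2.93 to 6.86) and 54.5 against 34.7 in controls. In these 4 genes the PML-RARa libraries lay within 2-fold of each other, and the NT library was lower with OHT.

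Other large increases of the OHT pair were under the minimum of 20 in controls. Mmp10, stromelysin 2, had 48.8 against 1.04 with OHT (41 reads against 1), while in controls the values were 5.74 and 0.827. Col6a3, a collagen VI chain, had 28.6 against 1.04 with OHT and 7.66 against 1.65 in controls. Ppp1r14c, an inhibitor of protein phosphatase 1, had 67.8 against 3.12 with OHT and 18.2 against 2.48 in controls. In these 3 genes the PML-RARa library was higher in both pairs, on few reads in controls, and higher with OHT than in its control. Prl2c2 and Serpinb9g, under the minimum in controls, and Gm2022, 2-fold higher there, were also among the 15 largest ratios, at 4.83, 4.68 and 4.21, and belong to families of near-identical copies among which the counting could split reads. Gm6484, a predicted gene, had 52.4 against 1.04 with OHT (44 reads against 1) and 96.6 against 6.62 in controls, and so stayed higher.

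The largest decreases that stayed were of genes with 1 or 2 reads in the PML-RARa libraries, whose ratios are bounded by few reads. Treml1, a receptor stored in platelet alpha granules, had 1.19 scaled reads in PML-RARa OHT cells and 245 in NT OHT cells (1 read against 236), and 1.91 and 109 in the PML-RARa and NT controls. Its ratio was -6.81 (-13.00 to -5.19) with OHT and -5.24 (-8.90 to -3.95) in controls. Sdpr, the caveolar protein cavin 2, had 2.38 against 310 with OHT and 1.91 against 98.5 in controls. Robo3, a Slit family guidance receptor, had 1.19 against 219 with OHT and 0.957 against 73.6 in controls. Kcnj5, a potassium channel subunit, had 1.19 against 194 with OHT and 0.957 against 57.1 in controls. PML-RARa cells held 1 or 2 reads of these 4 genes in either state, and the NT value was higher with OHT than in controls in all 4. Clca1, Gucy1a3, Pls1, Ly6g6f and Sytl4 had the same layout, with 1 or 2 reads in each PML-RARa library and NT OHT values of 166, 177, 170, 113 and 84.2 scaled reads.

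Lrrk2, Itgb2l, Retnlg, Ceacam10 and Tie1 also stayed lower. Lrrk2, a large kinase of myeloid cells and neurons, had 2.38 scaled reads in PML-RARa OHT and 214 in NT OHT cells, with 17.2 and 566 in the PML-RARa and NT controls. Itgb2l, a beta 2-like integrin chain, had 8.33 against 257 with OHT and 32.5 against 1502 in controls. Retnlg, a resistin-like protein of neutrophils, had 10.7 against 428 with OHT and 16.3 against 460 in controls. Ceacam10 had 5.95 against 225 with OHT and 11.5 against 337 in controls, and Tie1, an endothelial receptor kinase that progenitors also carry, 1.19 against 79.0 with OHT and 1.91 against 82.7 in controls. In each of these genes both PML-RARa libraries lay far below both NT libraries.

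The promoters of genes that stayed lower were poorer in CG dinucleotides than those of genes whose decrease was lost, a description made after the values were seen. RefSeq promoters (250 bases before to 50 after the gene start, GRCm38.p6) matched 8479 of the 10580 gene symbols compared with OHT. The median ratio of observed to expected CG was 0.393 over the 204 matched of 250 symbols lower in both pairs, 0.606 over the 413 matched of 513 lower in controls only, and 0.773 over all matched symbols. A ratio above 0.6 was found in 30.4%, 51.1% and 73.4% of these promoters. Among the genes that were 2-fold higher in PML-RARa cells, in either pair or in both, 71.4% to 76.0% had a promoter in the table, under a minimum of 80%, so the same comparison was void for them. The interferon-stimulated response element core, which is GAAA, any 2 bases and GAAA again, searched on both strands, was in 3.92% of the promoters of genes lower in both, 5.81% of those lower in controls only, 3.05% of all matched promoters and 3.49% of all 27025 promoters of the table. Direct repeats of the retinoid receptor half-site AGGTCA with 1, 2 or 5 bases between copies were in 1 of the 204 promoters lower in both and in 16 of all 27025. Direct repeats of GGTTCA with the same spacing were in 46 of the 27025. Treml1 and Camp, which stayed lower, are shown with CG in capitals. Ifit3, of the interferon list described further down, is shown with the response element core in capitals on the opposite strand. The intervals are chr17:48359666-48359965 (+) for Treml1, chr9:109849407-109849706 (-) for Camp and chr19:34583279-34583578 (+) for Ifit3.
Treml1: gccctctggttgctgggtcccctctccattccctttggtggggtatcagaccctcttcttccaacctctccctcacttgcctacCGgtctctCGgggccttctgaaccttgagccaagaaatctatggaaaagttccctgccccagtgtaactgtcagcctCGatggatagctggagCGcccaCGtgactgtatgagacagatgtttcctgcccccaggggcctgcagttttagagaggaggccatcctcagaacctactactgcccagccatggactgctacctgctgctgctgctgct
Camp: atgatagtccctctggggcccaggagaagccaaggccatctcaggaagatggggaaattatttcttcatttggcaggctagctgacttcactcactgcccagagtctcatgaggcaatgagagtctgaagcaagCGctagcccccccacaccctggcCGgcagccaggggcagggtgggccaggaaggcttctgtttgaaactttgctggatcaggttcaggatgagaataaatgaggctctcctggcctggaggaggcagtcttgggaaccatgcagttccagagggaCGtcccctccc
Ifit3: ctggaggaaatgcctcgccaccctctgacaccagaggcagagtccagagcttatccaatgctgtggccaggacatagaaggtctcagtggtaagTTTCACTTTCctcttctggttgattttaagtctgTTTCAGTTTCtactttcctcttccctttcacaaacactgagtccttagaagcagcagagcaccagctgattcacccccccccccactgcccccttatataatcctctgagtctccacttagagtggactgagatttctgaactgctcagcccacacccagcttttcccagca
Treml1 held 5 CG dinucleotides in its 300 bases, Camp 3 and Ifit3 1.

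Late neutrophil genes were lower in PML-RARa cells in both states. Of the 27 late granule and maturation genes compared with OHT, 12 were 2-fold lower and 1 was 2-fold higher, beside 5.83% lower and 4.23% higher over all transcripts, with a median ratio of -0.84 against -0.13 over all. In the control pair 14 of 29 were lower and 1 was higher, beside 8.28% and 12.4% over all, with a median of -0.83. Of the 29 genes with a value, 22 reached the minimum in PML-RARa OHT and 27 in NT OHT cells. In the PML-RARa and NT controls 24 and 29 did. Some genes were thus compared only through the NT library, which favours a high count of decreases and a low median. With no minimum the OHT median was also -0.84. Camp, the cathelicidin antimicrobial peptide of secondary granules, had 4.76 scaled reads in PML-RARa OHT and 313 in NT OHT cells, and 45.0 against 723 in the control pair. Its ratio was -5.77 (-7.92 to -4.67) with OHT. Ltf, lactoferrin, had 294 against 2222 with OHT and 206 against 3289 in controls. Cd177, a neutrophil surface antigen, had 184 against 528 with OHT and 247 against 2050 in controls. Fpr1 and Fpr2, the formyl peptide receptors, had 16.7 and 88.1 scaled reads in PML-RARa OHT cells against 398 and 481 in NT OHT cells. In the controls they had 0.957 and 10.5 against 249 and 424. Mmp9, gelatinase B, had 810 against 1885 with OHT and 354 against 1519 in controls, and Ngp, neutrophilic granule protein, 432 against 1264 with OHT and 1191 against 1747 in controls. The single gene of the list that was higher with OHT was Cebpe, a transcription factor of late granulocyte maturation, at 352 against 126 scaled reads, with 973 and 840 in the PML-RARa and NT controls. S100a8, Mmp8, Cyba and Pglyrp1 were under 2-fold apart in both pairs. The summed neutrophil markers, 10 genes that overlap this list, were 3903 in PML-RARa OHT and 7110 in NT OHT cells, and 8445 and 14215 in the PML-RARa and NT controls; the part of neutrophil number in these differences was not tested. Without transcripts above 0.5 reads per base, where ratios of abundant short transcripts may be compressed, the list's median with OHT was -2.54.

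Cybb, the NADPH oxidase subunit gp91phox, and Fcnb, ficolin B, had smaller ratios with OHT than in controls. Cybb had 780 scaled reads in PML-RARa OHT and 1475 in NT OHT cells (-0.92, -1.06 to -0.79), with 59.3 and 3257 in the PML-RARa and NT controls (-5.76, -6.16 to -5.42). Fcnb had 4.76 against 49.9 with OHT and 21.1 against 900 in controls. Cybb was higher in PML-RARa cells and lower in NT cells with OHT, and Fcnb was lower in both. The primary granule genes of promyelocytes were close in both pairs: 1 of 16 was 2-fold higher and 1 was 2-fold lower with OHT, and 0 were higher and 2 lower in controls. Over all transcripts 4.23% were higher and 5.83% lower with OHT, and 12.4% and 8.28% in controls. Mpo, myeloperoxidase, had 1115 against 1065 with OHT and 3410 against 3801 in controls, and Elane, neutrophil elastase, 183 against 204 with OHT and 789 against 1272 in controls. Both genes were lower with OHT whether or not PML-RARa was present. The gene that was higher was Prss57, a granule serine protease, at 132 against 52.0 with OHT and 595 against 813 in controls. The list's median was 0.13 with OHT (1.33 over the few genes left without transcripts above 0.5 reads per base) and -0.35 in controls.

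In the list of erythroid and megakaryocyte genes more were 2-fold lower than higher in both states. Of 19 erythroid and megakaryocyte genes compared with OHT, 7 were 2-fold lower and 0 were 2-fold higher, beside 5.83% and 4.23% over all transcripts. The OHT median was -0.80 (-2.06 without transcripts above 0.5 reads per base). In controls 8 were lower and 3 higher, beside 8.28% and 12.4% over all, with a median of -0.52. Of the 25 genes with a value, 16 reached the minimum in PML-RARa and 19 in NT cells, with OHT and in controls alike. The limit given for the late neutrophil genes thus holds here too. The 7 lower with OHT were Ppbp, Gp9, Selp, Gp6, Treml1, Clec1b and Car2, and the other 12 were under 2-fold apart. Ppbp, platelet basic protein, had 277 scaled reads in PML-RARa OHT and 1223 in NT OHT cells, and 26.8 against 678 in controls. Gp9, part of the platelet von Willebrand factor receptor, had 63.1 against 330 with OHT and 23.0 against 100 in controls. Selp, P-selectin, had 72.6 against 419 with OHT and 30.6 against 199 in controls. Pf4, platelet factor 4, and Vwf were under 2-fold lower with OHT, at 422 against 833 and 957 against 1670, and lower in controls, at 94.7 against 443 and 110 against 844. These 5 genes were all higher with OHT than in controls, in PML-RARa and in NT cells. The summed megakaryocyte markers were 7928 in PML-RARa OHT and 9057 in NT OHT cells, and 3848 and 4751 in the controls. Itga2b, the CD41 integrin chain that mast cells also carry, was close in both pairs, at 5846 against 5059 with OHT and 3435 against 3064 in controls. Epor, the erythropoietin receptor, and Klf1, an erythroid transcription factor, had 152 against 211 and 22.6 against 28.1 with OHT, whereas in controls they were 2-fold higher in PML-RARa cells, at 256 against 86.9 and 109 against 40.5. Car2, carbonic anhydrase 2, was 2-fold lower only with OHT, at 107 against 450, with 339 and 435 in the controls.

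Eosinophil genes had the highest OHT median of the 24 lists. With OHT 8 of 11 were 2-fold higher and 0 were 2-fold lower, beside 4.23% and 5.83% over all transcripts, with a median of 1.48. In controls 3 of 9 were higher and 1 was lower, with a median of 0.20. Of the 12 genes with a value, 10 reached the minimum in PML-RARa OHT and 6 in NT OHT cells. Some genes were thus compared only through the library where they were high, which by itself favours a high count. With no minimum the OHT median was also 1.48. Summed over the 12 genes, the level was 3738 in PML-RARa OHT and 1830 in NT OHT cells, and 3436 and 3146 in the controls. Prg2, the major basic protein of eosinophil granules, had 602 scaled reads in PML-RARa OHT and 241 in NT OHT cells, and 716 against 623 in controls. Prg3, its homologue, had 85.7 against 10.4 with OHT and 305 against 103 in controls. Ccr3, the eotaxin receptor, had 105 against 15.6 with OHT and 21.1 against 8.27 in controls. Prg2 and Prg3 were lower with OHT in both cell types, and more so in NT cells, while Ccr3 was higher in PML-RARa OHT cells. Ear2 and Ear6, ribonucleases of a family of near-identical copies, had 51.2 against 17.7 and 41.7 against 8.31 with OHT. Epx, eosinophil peroxidase, had 19.0 against 30.1 with OHT and 373 against 662 in controls, and Il5ra, the interleukin 5 receptor chain, 30.9 against 56.1 with OHT and 26.8 against 63.7 in controls. These eosinophil genes were thus not higher in PML-RARa cells in either pair. The summed eosinophil markers were 843 in PML-RARa OHT and 353 in NT OHT cells, and 1442 and 1459 in the controls. Ccl24, eotaxin 2, of the cytokine list, had 787 against 189 with OHT and 366 against 46.3 in controls. Whether more cells of the eosinophil type were present was not tested.

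**Figure D2:**
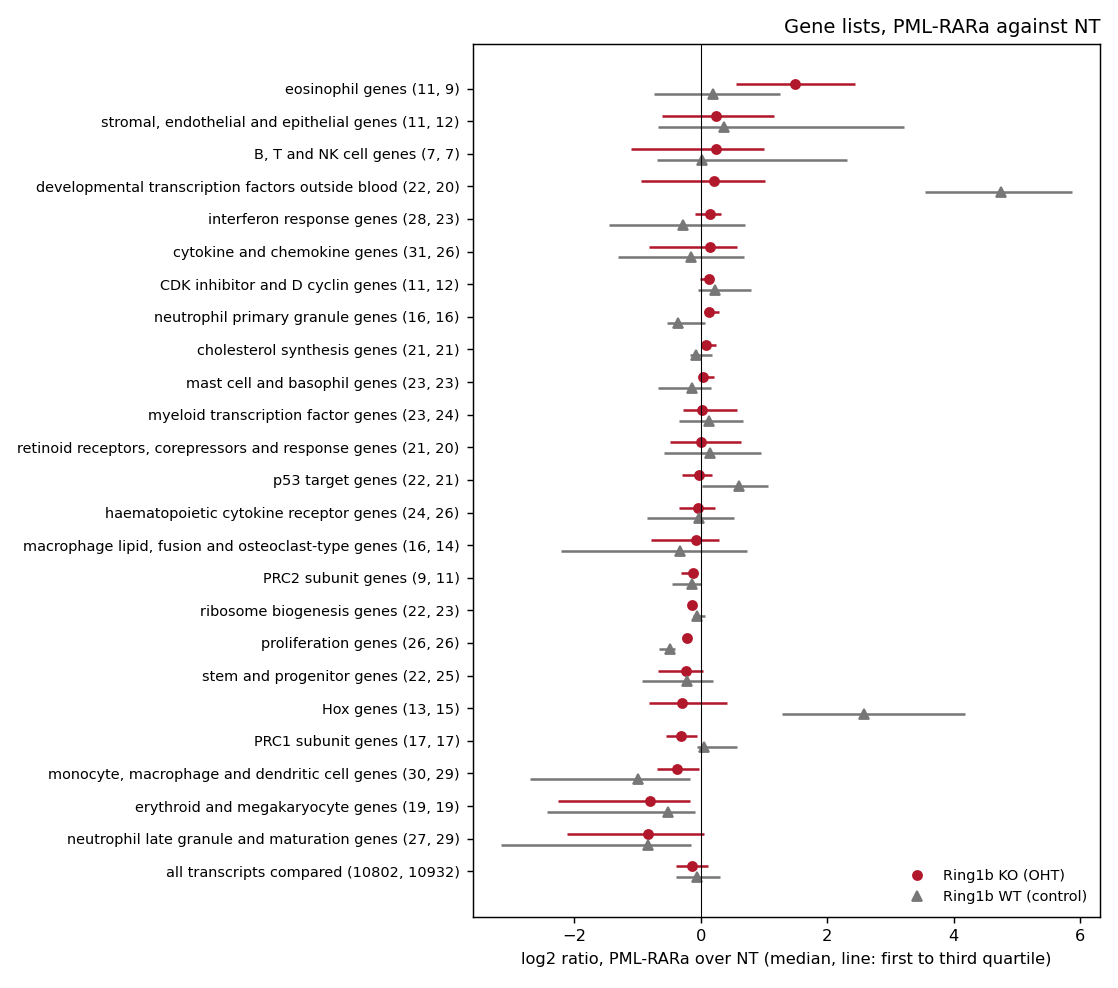
Points give the median log2 ratio of PML-RARa over NT of each gene list, with a line from the first to the third quartile, in Ring1b KO (OHT, circles) and Ring1b WT (control, triangles) cells; the numbers in parentheses are genes compared in each pair. Developmental factors and Hox genes have control medians of 4.75 and 2.59, mostly over genes that met the minimum in PML-RARa but not NT controls, and OHT medians of 0.22 and -0.30. Late neutrophil genes have nearly the same median in both.

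The differences that were lost included those of most developmental regulators. These transcription factors of neural, limb and mesoderm development are textbook Polycomb targets, and 87 were listed, of which 73 had a value. In the control pair 18 of the 20 compared were 2-fold higher in PML-RARa cells and 1 was lower, beside 12.4% and 8.28% over all transcripts, with a median of 4.75. Of the 73 genes, 20 reached the minimum in PML-RARa controls and 3 in NT controls. Most compared genes thus passed only through the library where they were high, which by itself favours a high count and median. The sums over all 73 genes, given further down, do not depend on the minimum. In the OHT pair 22 were compared, and 6 were higher and 5 were lower, beside 4.23% and 5.83% over all, with a median of 0.22. Zic2, a zinc finger factor of forebrain patterning, had 91.6 scaled reads in PML-RARa OHT and 119 in NT OHT cells, with 220 and 1.65 in the PML-RARa and NT controls. Its ratio was -0.38 (-0.82 to 0.05) with OHT and 6.38 (5.19 to 10.11) in controls. Twist1, a bHLH factor of mesoderm, had 40.5 against 27.0 with OHT and 166 against 1.65 in controls. Tbx15, a T-box factor of limb and skeleton, had 290 against 176 with OHT and 322 against 4.14 in controls. In these 3 genes the NT libraries held 2 to 5 reads in controls and 26 to 169 with OHT, whereas the PML-RARa value was lower with OHT than in its control.

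The 6 developmental factors that were 2-fold higher in PML-RARa OHT cells were Lhx2, Zic1, Six2, En2, Irx5 and Gata4, of which the first 5 were also higher in the controls and Gata4 was under the minimum there. Zic1 had 60.7 against 10.4 with OHT and 414 against 2.48 in controls. Irx5, an Iroquois homeobox factor, had 63 reads against 22 with OHT (ratio 1.67, 0.99 to 2.48) and 252 reads against 1 in controls. Lhx2, a LIM homeobox factor, was an exception in level, since it had 170 against 49.9 with OHT and 30.6 against 1.65 in controls. Lhx2 was therefore higher with OHT in both PML-RARa and NT cells. The 5 that were 2-fold lower with OHT were Tbx2, Six3, Shox2, Hmx2 and Gbx2, all under 100 scaled reads. Gbx2, a hindbrain homeobox factor, was lower in both pairs, at 17.9 against 76.9 with OHT and 36.4 against 86.0 in controls.

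Hox genes, which set position along the body axis and in blood mark stem cells and leukaemia, lost their difference in the same way. In controls 12 of 15 were 2-fold higher and 2 were lower, beside 12.4% and 8.28% over all transcripts, with a median of 2.59. With OHT 3 of 13 were higher and 2 were lower, beside 4.23% and 5.83% over all, with a median of -0.30. Of the 37 Hox genes with a value, 14 reached the minimum in PML-RARa controls and 5 in NT controls, so the same limit holds for the control count. Hoxd13 had 42.8 scaled reads in PML-RARa OHT and 54.0 in NT OHT cells, with 357 and 2.48 in the controls. Hoxa11 stayed higher, at 82.1 against 10.4 with OHT (ratio 2.87, 2.02 to 4.11) and 433 against 4.14 in controls (6.40, 5.47 to 8.34). Hoxa10 and Hoxb13 stayed higher too, at 33.3 against 11.4 and 27.4 against 3.12 with OHT. These 3 are posterior members of their clusters, as is Hoxd13, which did not stay. Hoxb4 and Hoxb2, the 2 Hox genes lower in PML-RARa controls, had 88.1 against 134 and 3.57 against 24.9 with OHT. Hoxa9, whose overexpression is another arm of the study, had 4.76 and 6.23 scaled reads with OHT and was under the minimum. Summed over the 37 Hox genes with a value, the level was 530 in PML-RARa OHT and 555 in NT OHT cells, and 1588 and 397 in the PML-RARa and NT controls. The summed developmental factors gave 1790 and 1372 with OHT and 3187 and 483 in the controls. In both lists the PML-RARa sum was lower with OHT than in controls, and the NT sum was higher.

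**Figure D3:**
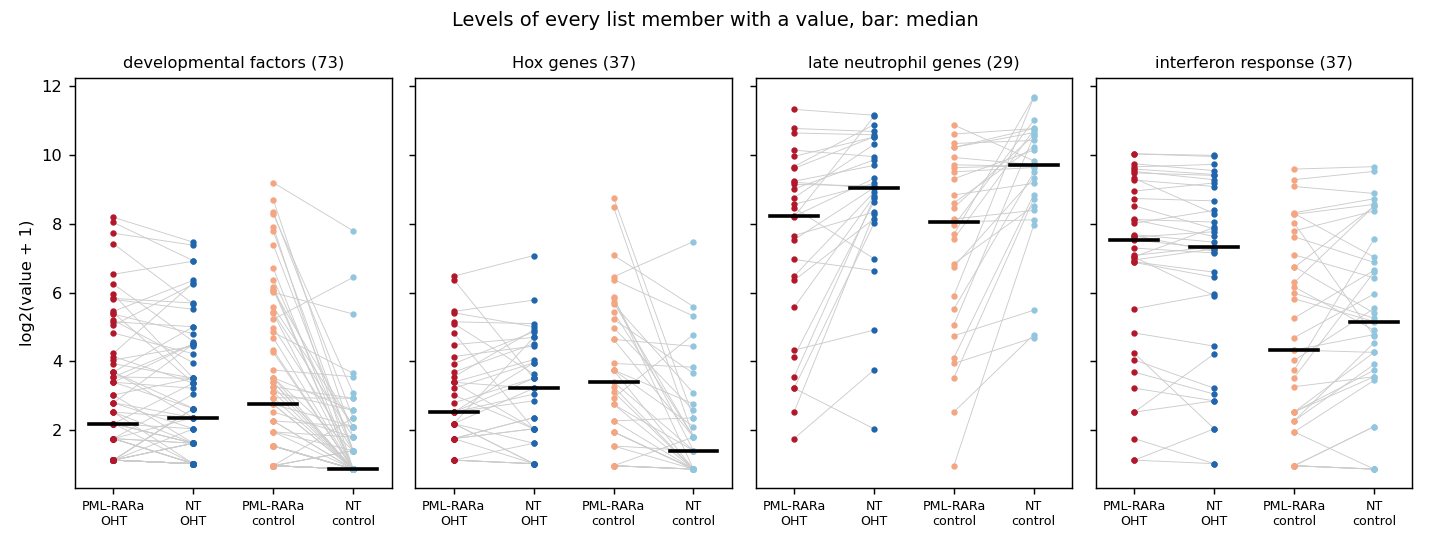
Each point is 1 gene of a list, at its log2(value + 1) in each of 4 libraries, with grey lines joining PML-RARa to NT of the same state and a bar at the median. In the 2 left panels the PML-RARa control library lies above the NT control library while the OHT medians lie closer together; in the late neutrophil panel PML-RARa lies below NT in both states; in the interferon panel the OHT libraries lie level and above the controls.

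Outside the lists, the largest control differences that were lost had the same form. Nes, the intermediate filament nestin, had 155 scaled reads in PML-RARa OHT and 126 in NT OHT cells, with 754 and 8.27 in the controls. Fgf15, an enterohepatic growth factor hormone, had 46.4 against 42.6 with OHT and 221 against 1.65 in controls. Ptprn, a secretory granule protein of neuroendocrine cells, had 82.1 against 85.2 with OHT and 433 against 6.62 in controls. Hid1 had 126 against 97.7 with OHT and 410 against 4.96 in controls. Arhgef17, a guanine nucleotide exchange factor, had 130 against 88.3 with OHT and 645 against 11.6 in controls, and Phlda2, an imprinted gene, 67.8 against 112 with OHT and 240 against 4.14 in controls. In each of these 6 genes the PML-RARa library was lower and the NT library higher with OHT than in controls. Gipr, the receptor for the incretin GIP, differed from them in that PML-RARa had 13.1 scaled reads with OHT, against 657 in controls, while NT had 19.7 with OHT and 4.96 in controls. Cell adhesion and epithelial genes gave intermediate cases: Cdh1, E-cadherin, had 3047 against 1268 with OHT and 3570 against 671 in controls, and Epcam 386 against 184 with OHT and 889 against 20.7 in controls. Krt18, a keratin, was no longer higher, at 98.8 against 175 with OHT and 726 against 17.4 in controls.

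**Figure D4:**
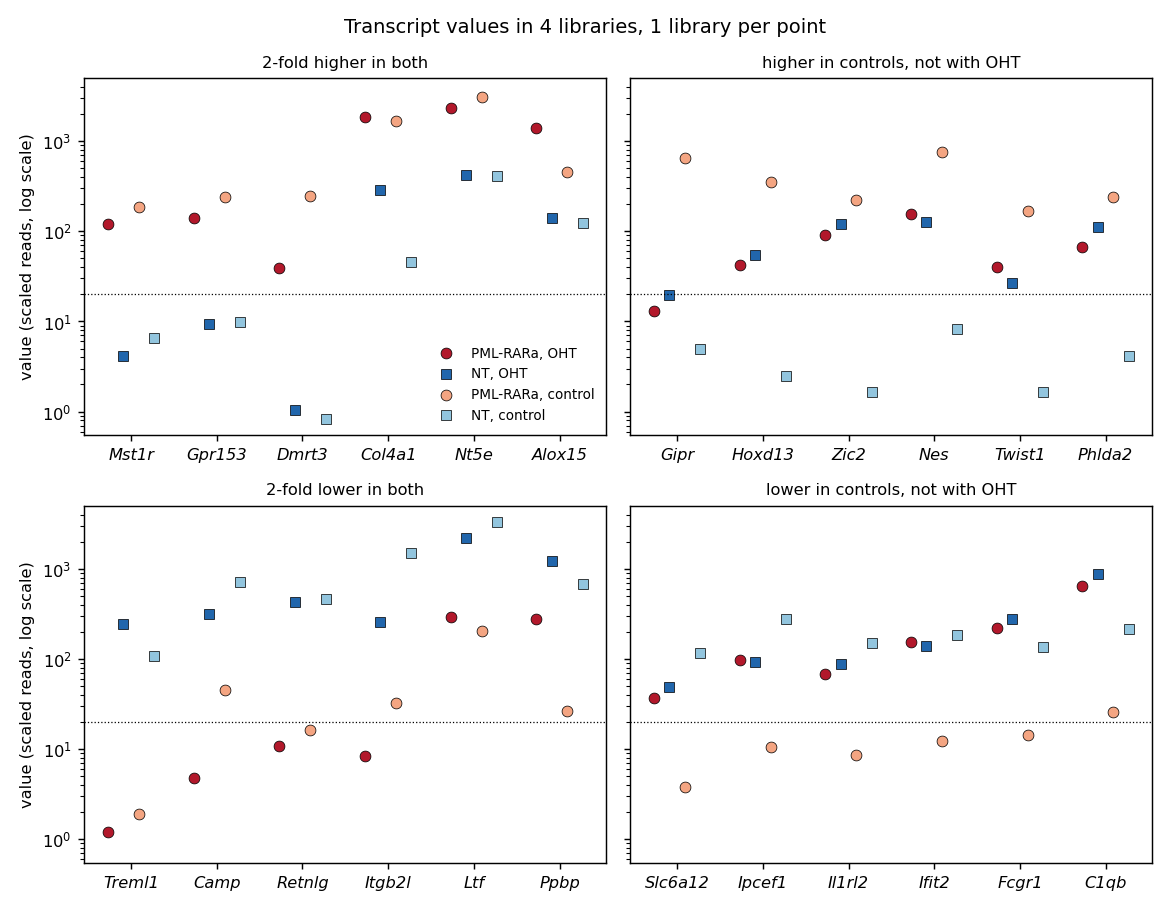
Scaled reads (log axis) of 6 genes in each of 4 patterns, 1 library per point, with the minimum of 20 as a dotted line. Circles (PML-RARa) and squares (NT) stay apart for Mst1r or Camp in both states, but meet with OHT (dark) for Hoxd13, Nes, Ifit2 and C1qb after lying far apart in controls (light).

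Macrophage genes had fewer 2-fold decreases with OHT than in controls. In controls 14 of 29 monocyte, macrophage and dendritic cell genes were 2-fold lower in PML-RARa cells and 3 were higher, with a median of -0.99. The shares over all transcripts were 8.28% lower and 12.4% higher. With OHT 4 of 30 were lower and 1 was higher, beside 5.83% and 4.23% over all, with a median of -0.37. Of the 40 genes with a value, 22 reached the minimum in PML-RARa controls and 28 in NT controls. Some genes thus entered only through the NT control library, which favours a low control median. Summed over the 40 genes, the level was 6307 in PML-RARa and 7894 in NT controls, and 15937 and 19239 with OHT. Their median value was 29.7 and 105 in the controls, and 190 and 281 with OHT. C1qb, a chain of complement C1q, had 639 scaled reads in PML-RARa OHT and 889 in NT OHT cells (-0.48, -0.64 to -0.32), with 25.8 and 213 in the controls (-3.00, -3.68 to -2.47). Mrc1, the mannose receptor, had 2309 in both OHT libraries, with 101 and 761 in the PML-RARa and NT controls. Fcgr1, a high-affinity Fc receptor, had 221 against 280 with OHT and 14.4 against 137 in controls. All 3 genes were higher with OHT than in controls in both cell types, by more in PML-RARa cells. The genes that were 2-fold lower with OHT were Apoe, Marco, Cd14 and C1qa. Apoe, apolipoprotein E, had 86.9 against 1092 with OHT (-3.64, -4.01 to -3.31) and 227 against 422 in controls, and Marco, a scavenger receptor, 25 against 451 with OHT and 0.957 against 14.1 in controls. Apoe thus differed more with OHT than in controls, while the control value of Marco rests on 1 read and was under the minimum. The summed macrophage markers were 6164 in PML-RARa OHT and 8160 in NT OHT cells, and 986 and 2420 in the controls. Genes of lipid-laden and fused macrophages had medians of -0.07 with OHT, which becomes 0.065 after centring on all transcripts, and -0.33 in controls. Of these 16 genes with OHT, 1 was higher and 2 were lower, beside the same shares over all transcripts. Gpnmb, a lysosomal glycoprotein, had 3348 against 3485 with OHT and 285 against 1322 in controls.

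Most interferon response genes were under 2-fold apart in the OHT pair. With OHT 2 of 28 were 2-fold higher and 0 were lower, near the 4.23% and 5.83% over all transcripts, with a median of 0.15, whereas in controls 4 of 23 were higher and 8 were lower, beside 12.4% and 8.28% over all, with a median of -0.29. Ifit2, an antiviral tetratricopeptide protein, had 156 scaled reads in PML-RARa OHT and 141 in NT OHT cells, with 12.4 and 187 in the controls. Ifit3, whose promoter is printed above, had 45.2 against 61.3 with OHT and 0.957 against 3.31 in controls, 38 reads against 59 and 1 against 4. Oas2, an oligoadenylate synthetase, had 131 against 237 with OHT and 10.5 against 96.0 in controls, and Oasl2 278 against 264 with OHT and 258 against 25.6 in controls. Ifit2, Oas2 and Oasl2, more than 2-fold apart in controls, were thus within 2-fold in the OHT pair. The pair that was 2-fold higher with OHT was Rsad2 (viperin), at 638 against 313, and Cxcl10, a chemokine, at 130 against 59.2. In controls both were 2-fold lower, at 15.3 against 45.5 and 3.83 against 22.3.

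Retinoid genes, listed because the fusion contains a retinoic acid receptor, showed no common direction. With OHT 2 of 21 were 2-fold higher and 4 were lower, beside 4.23% and 5.83% over all transcripts, with a median of -0.0030 that becomes positive after centring. In controls 5 of 20 were higher and 4 were lower, beside 12.4% and 8.28% over all, with a median of 0.14. Aldh1a3, an enzyme that makes retinoic acid, had 494 scaled reads in PML-RARa OHT and 41.6 in NT OHT cells (3.54, 3.10 to 4.08), and 153 against 29.8 in controls. Dhrs9, a retinol dehydrogenase, had a ratio of 1.16 (0.76 to 1.58) with OHT, from 151 reads against 77, and in controls 45.0 against 43.8 scaled reads. Dhrs3, which reduces retinal to retinol, had 32.1 against 101 with OHT and 24.9 against 42.2 in controls. Aldh1a1, which like Aldh1a3 makes retinoic acid, had 1.19 against 21.8 with OHT and 1.91 against 24.8 in controls, and Rarb, the retinoic acid receptor beta, 2.38 against 21.8 with OHT and 4.78 against 4.96 in controls. So Aldh1a3 stayed higher, and Aldh1a1 stayed lower. Rxra, the partner receptor of RAR, had 1570 against 1009 with OHT and 1264 against 165 in controls. Tgm2, transglutaminase 2, had 652 against 654 with OHT and 1918 against 662 in controls, and Asb2, a ubiquitin ligase subunit induced by retinoic acid, 1177 against 1002 with OHT and 805 against 298 in controls. Rxra, Tgm2 and Asb2 were thus 2-fold higher in PML-RARa cells in controls and under 2-fold apart with OHT.

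Mast cell genes, abundant in all 4 libraries, were mostly under 2-fold apart in both pairs. With OHT 2 of 23 were 2-fold higher (Rgs13 and Il13) and 2 were lower (Mcpt1 and Tpsab1), beside 4.23% and 5.83% over all transcripts, with a median of 0.03. In controls 2 were higher and 5 lower, beside 12.4% and 8.28% over all, with a median of -0.14. Cpa3, carboxypeptidase A3, had 3302 against 2952 with OHT and 2413 against 2321 in controls. Hdc, histidine decarboxylase, had 4196 against 3293 with OHT and 3070 against 1976 in controls. Il13, a type 2 cytokine, had 175 against 76.9 with OHT and 262 against 36.4 in controls. The tryptase and chymase genes are near-identical copies, so their single values are uncertain, and reads per base in these libraries levelled off near 2, so ratios of abundant transcripts may be smaller than the true ones. Without transcripts above 0.5 reads per base the mast cell median with OHT was 0.18.

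Cell cycle and growth genes were close in the OHT pair. Of 26 proliferation genes 0 were 2-fold higher and 0 were lower in either pair, with medians of -0.22 with OHT and -0.49 in controls. Mki67 had 1598 scaled reads in PML-RARa OHT and 1674 in NT OHT cells, and 3740 against 5913 in controls, so both cell types were lower with OHT. Ribosome biogenesis genes had medians of -0.14 with OHT and -0.06 in controls with 0 genes past 2-fold in either pair. Of the cyclin and CDK inhibitor genes, 0 of 11 were 2-fold apart with OHT, against 3 of 12 higher in controls. Cyclin D1 (Ccnd1) had 2208 against 2105 with OHT and 1226 against 146 in controls, and Cdkn2b, which encodes p15, 719 against 656 with OHT and 544 against 127 in controls. In both genes NT cells reached the PML-RARa level with OHT. p53 target genes had a median of -0.03 with OHT, positive after centring, with 1 of 22 higher and 1 lower, and 0.61 in controls with 6 of 21 higher; Perp stayed higher, at 1950 against 939 with OHT and 1962 against 400 in controls. Cholesterol synthesis genes had medians of 0.08 with OHT and -0.07 in controls, with 1 of 21 genes 2-fold higher and 0 lower in each pair. The counts of these lists stand beside 4.23% higher and 5.83% lower over all transcripts with OHT, and 12.4% and 8.28% in controls.

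PRC1 subunit genes were under 2-fold apart in all 17 cases with OHT, with a median of -0.31, and 2 of 17 were higher in controls, with a median of 0.06. Cbx7, a chromobox subunit, had 232 against 210 with OHT and 458 against 156 in controls, and Bmi1 1080 against 1243 with OHT and 873 against 843 in controls. PRC2 subunit genes had 0 of 9 past 2-fold with OHT and 0 of 11 in controls, with medians of -0.13, slightly positive after centring, and -0.14. Of the 17 PRC1 and 9 PRC2 subunit genes compared with OHT, 0 were thus 2-fold apart, beside 4.23% higher and 5.83% lower over all transcripts. In controls these shares over all were 12.4% and 8.28%.

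Among myeloid transcription factor genes 2 of 23 were higher (Cebpe and Egr2) and 1 was lower (Cebpd) with OHT, with a median of 0.02, and 3 of 24 were higher and 4 lower in controls, with a median of 0.13. Spi1, which encodes PU.1, had 1304 against 1290 with OHT and 1188 against 1246 in controls, and Cebpd 108 against 256 with OHT and 257 against 665 in controls. Irf8, a monocyte factor, had 176 against 273 with OHT and 270 against 138 in controls, so its sign differed between the pairs at under 2-fold. Of the cytokine receptor genes 1 of 24 was 2-fold apart with OHT: Il2ra, the interleukin 2 receptor alpha chain, stayed higher at 791 against 284, with 538 against 72.8 in controls. In controls 5 of 26 were higher and 5 were lower, and the medians were -0.04 with OHT and -0.03 in controls, both positive after centring. Stem and progenitor genes had medians of -0.23 with OHT and -0.22 in controls, with 0 higher and 3 lower of 22 with OHT and 2 higher and 6 lower of 25 in controls. For these 3 lists the shares over all transcripts were 4.23% higher and 5.83% lower with OHT, and 12.4% and 8.28% in controls. Slamf1 (CD150) was lower in both pairs, at 4.76 against 103 with OHT and 7.66 against 50.5 in controls.

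Cytokine and chemokine genes had 4 of 31 higher and 4 lower with OHT, with a median of 0.14, and 4 of 26 higher and 8 lower in controls, with a median of -0.16. Cxcl16, a scavenger chemokine of macrophages, had 76.2 against 394 with OHT and 23.9 against 63.7 in controls, and Ptgs2, cyclooxygenase 2, 254 against 119 with OHT and 173 against 50.5 in controls. Both kept their direction. Ccl8 and Ccl12, monocyte chemokines, were 2-fold lower only in controls, at 294 against 305 and 269 against 156 with OHT. In controls they had 2.87 against 81.9 and 2.87 against 32.3. Among genes of other lineages, B, T and NK cell genes had 2 of 7 higher and 2 lower with OHT, with a median of 0.23 that became -1.10 without transcripts above 0.5 reads per base, and 3 higher and 1 lower in controls, with a median of 0.02. Tcf7, a T cell and progenitor factor, stayed higher at 105 against 34.3, with 477 against 33.9 in controls. Stromal, endothelial and epithelial genes had 4 of 11 higher and 1 lower with OHT, with a median of 0.25, and 5 of 12 higher and 2 lower in controls, with a median of 0.37. Beside the counts of this paragraph, 4.23% of all transcripts were higher and 5.83% lower with OHT, and 12.4% and 8.28% in controls. The stromal and endothelial markers summed to 77.4 in PML-RARa OHT and 132 in NT OHT cells, while the whole list summed to 7954 and 4821. Col1a1, another collagen gene, had 15.5 against 14.5 scaled reads with OHT, under the minimum, and was not compared.

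Among the other large decreases of the OHT pair were genes whose NT value was higher with OHT than in the NT control. Serpina3b, a serine protease inhibitor of a family of close copies, had 1.19 scaled reads in PML-RARa OHT and 408 in NT OHT cells (1 read against 393, ratio -7.55, -13.73 to -5.94), and 2.87 against 34.7 in controls. It was thus lower in both pairs, with a far larger NT value with OHT. Timp3, an inhibitor of matrix metalloproteinases, had 55.9 against 1367 with OHT and 122 against 256 in controls. Loxl2, a lysyl oxidase of the matrix, had 592 against 1276 with OHT and 225 in both controls, and its OHT ratio of -1.11 became -0.97 after centring, under 2-fold. Clu, clusterin, had 5.95 against 382 with OHT and 45.0 against 243 in controls, and Asprv1, an aspartic protease, 3.57 against 496 with OHT and 17.2 against 400 in controls. For Timp3 the NT library was the one that was far higher with OHT. Loxl2 was higher with OHT in both cell types, by more in NT cells. F630028O10Rik had 411 against 1004 with OHT and 1307 against 1426 in controls, and so was lower with OHT in both cell types, by more in PML-RARa cells. Pxdc1 had 461 against 1127 with OHT and 400 against 879 in controls. Grm6, a metabotropic glutamate receptor, had 1595 against 3248 with OHT and 69.9 against 1085 in controls, and its OHT ratio of -1.03 was under 2-fold after centring (-0.89), with TMM (-0.98) and with total-read scaling.

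Beside the other transduced OHT libraries, PML-RARa OHT cells had the highest value of the 4 OHT libraries in 235 of the 457 transcripts that were higher than in NT OHT cells, where 13.7% of all compared transcripts had it. They had the lowest value in 380 of the 630 lower transcripts, against 32.6% of all. The choice of these transcripts against NT raises both counts, so they are a description.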

How the data were processed

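Total RNA of 8 libraries was sequenced from TruSeq RNA v2 libraries, per the labels' protocols; that kit does not keep strand. TopHat, DESeq and the mm9 build are named, without versions or roles, per the submitters' processing notes; the sources used here name neither read counter nor annotation. The deposited tables hold, per RefSeq transcript, base means, which are a signal of reads divided by a size factor, and, per the file headers, the authors' fold change ratio, its log2 value and an unadjusted p-value for OHT against control of each cell type; these last 3 were not used here. Dividing by each library's step gave whole reads for 100% of values within 0.02 reads in every library, and the size factors matched a joint median of ratios over the 8 libraries, so values compare across the 4 tables.

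The 2 tables were joined by transcript ID. Ratios are differences of log2(value + 1), a transcript needs 20 in the higher library, and 2-fold counts as a difference. A pseudocount understates the change of low transcripts. Exact 95% (Clopper-Pearson) intervals cover counting error only. No column belonged to an unknown sample. Of 36 gene symbols turned into dates in the tables, 35 were restored by RefSeq ID. Gene lists were described by counts and medians. Some list genes met the minimum only in the higher library, which favours counts and medians in that direction. Members and lists were chosen with earlier results of these data known. Genes named are the 15 largest OHT ratios each way, the 10 largest at 1000 or more, the 10 that stay most and the 10 control differences (at 100 or more) that are lost each way, 10 opposite ones at 100 or more in both pairs, list members and the design's genes, 1 transcript per symbol. Computation used Python 3.11.15, pandas 2.3.3, numpy 2.4.6 and scipy 1.17.1, and figures matplotlib 3.10.9. In an alternative chosen after seeing the data, edgeR 4.0.16 (R 4.3.3) was run on the recovered read counts of the 4 libraries, with PML-RARa and OHT as terms. The fit was tried on simulated data with the same changes in both pairs, which is no check of its outcome on these pairs. Promoter motifs and CG content were counted in RefSeq promoters, 1 per gene. Some listed genes are not reported here.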

Additional observations from a re-analysis of the deposited data

Results flagged for a closer look

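Among genes at 100 or more scaled reads in the higher library of both pairs, 10 were 2-fold apart in opposite directions with OHT and in controls. The difference between the pairs was not tested for any of them. Of the 10, 7 were lower in PML-RARa OHT cells and higher in PML-RARa controls. Myct1, a nuclear protein of endothelial and stem cells, had 5.95 scaled reads in PML-RARa OHT and 116 in NT OHT cells, with 130 and 33.9 in the controls, a ratio of -4.08 with OHT and 1.91 in controls. Ache, acetylcholinesterase, which is also made in erythroid and megakaryocyte cells, had 47.6 against 296 with OHT (-2.61) and 399 against 131 in controls (1.60). Mdga1, a membrane glycoprotein of neurons, had 40.5 against 157 with OHT (-1.93) and 201 against 29.0 in controls (2.75). In these 3 genes PML-RARa was lower and NT higher with OHT than in controls. Pcbp3, an RNA-binding protein, had a ratio of -1.37 with OHT and 1.63 in controls, and Nlrp6, an inflammasome sensor, -1.37 with OHT, with 164 against 57.1 scaled reads in controls. Smpd5 had -1.17 with OHT and 1.14 in controls, and Sptb, erythroid beta spectrin, -1.17 and 1.09.

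The other 3 were higher in PML-RARa OHT cells and lower in PML-RARa controls. Mgl2, a lectin of alternatively activated macrophages, had 231 against 53 with OHT (2.10) and 108 against 268 in controls (-1.30). Abca13, a lipid transporter, had 240 against 82.1 with OHT (1.54) and 245 against 841 in controls (-1.77), so its PML-RARa libraries were level and its NT library was lower with OHT. Chac1, an enzyme that degrades glutathione, had 181 against 77.9 with OHT (1.20) and 82.3 against 174 in controls (-1.07).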

How the results depend on the processing

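No paired analysis was possible because each group was 1 library with no replicate number; the edgeR fit below blocks on OHT only. Of 10 settings planned, rescaling by TMM or by total reads, centring, using 1 transcript per symbol and leaving out transcripts above 0.5 reads per base kept all 7 counts within 1.5 times. Centring turned the OHT balance to 565 higher and 495 lower, and took Loxl2 (-0.97) and Grm6 (-0.89) under 2-fold. Counts are given in the order OHT pair higher, OHT pair lower, control pair higher, control pair lower, both higher, both lower, opposite. With no minimum they were 1105, 1238, 2383, 1585, 486, 471 and 168. At 4-fold they were 119, 176, 703, 275, 61, 75 and 2, and the higher share of the control pair was 71.9%. With a minimum of 50, the counts that moved were 260 and 401 for the OHT pair, 171 and 147 for both, and 20 opposite. Requiring the whole counting interval past 2-fold left 185 and 238 in the OHT pair, 465 lower in the control pair, 114 and 104 in both, and 8 opposite. A pseudocount of 10 left 24 opposite.

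Treating the OHT and control pairs as repeats in edgeR, an alternative chosen after seeing the data with 1 residual degree of freedom, called 0 of 10500 transcripts higher and 0 lower for PML-RARa (smallest adjusted p 0.395; 1154 at an unadjusted p under 0.05). The other counts have no test. Medians of the OHT pair that moved included, after centring, 0.26 for primary granule, 0.17 for mast cell and 0.065 for macrophage lipid genes. Without transcripts above 0.5 reads per base, where fewer genes enter, they included 1.33 for primary granule, -2.54 for late neutrophil, 0.18 for mast cell, 0.17 for macrophage lipid, -2.06 for erythroid and megakaryocyte and -1.10 for B, T and NK cell genes, a change of sign. The monocyte, macrophage and dendritic cell median was -0.15 in that setting. With no minimum the cytokine and chemokine median was -0.06, also a change of sign. Of 380 single-gene values 376 moved by no more than 0.5 of the width of their counting interval, which is wide for low genes, the others being Thy1, Mmp9, Grm6 and Chi3l3 after centring. With a pseudocount of 10 the ratios of 17 of 95 named transcripts shrank by over 2 log2 units (Serpina3b to -5.22, Prl2c2 to 2.60).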

Other observations

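Siglecg, an inhibitory lectin receptor of B cells and macrophages that was among the largest control decreases, also reversed, below the level used above: it had 40.5 scaled reads in PML-RARa OHT and 9.35 in NT OHT cells (34 reads against 9, with a counting interval of the log2 ratio of 1.02 to 3.36), with 14.4 and 266 in the PML-RARa and NT controls. Il1rl2, the interleukin 36 receptor, had 69.0 against 87.3 with OHT and 8.61 against 152 in controls, and Ipcef1 96.4 against 93.5 with OHT and 10.5 against 279 in controls. Slc6a12, a betaine and GABA transporter, had 36.9 against 48.8 with OHT and 3.83 against 117 in controls. Chi3l3, a chitinase-like protein of a family of near-identical copies, had 995 against 1468 with OHT and 188 against 1693 in controls. In these last 4 genes the PML-RARa library was higher with OHT than in its control, and in all 4 the NT library was lower.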
